A study of Rattus norvegicus with 2 samples.

Results

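The let-7 and miR-98 family was followed in small RNA libraries of the rat hippocampus, taken on the day after status epilepticus (SE) and from control rats. Members were found by name, as every row of the count table that begins with rno-let-7 or is rno-miR-98 with an arm suffix. This gave 12 of the 390 rows, 8 of them 5p arms and 4 of them 3p arms. The 5p arms were rno-let-7a-5p, rno-let-7b-5p, rno-let-7c-5p, rno-let-7d-5p, rno-let-7e-5p, rno-let-7f-5p, rno-let-7i-5p and rno-miR-98-5p. The 3p arms were rno-let-7a-1-3p, rno-let-7c-2-3p, rno-let-7d-3p and rno-let-7e-3p.

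The animals were male Wistar rats with an age of 5 months, all with electrodes in the right amygdala. In the experimental group SE was induced by electrical stimulation for 20 min, and the control group was handled alike without current. RNA of the left hippocampus, opposite to the electrode, was pooled within each group after the vessels had been rinsed with saline. Each group was therefore 1 library, and the methods of the study state a group size but not how many rats entered a pool. No difference in the sequencing counts had a replicate library to check it. The deposited values were read counts without scaling, 5678090 for the experimental library and 6703056 for the control library. Levels are given as counts per 1000000 counts of the table (CPM), on which 1 count was worth 0.176 CPM and 0.149 CPM. Intervals are at 95% by the exact Clopper-Pearson method. For a ratio of levels the method was applied to both counts with the library totals taken as fixed. Such intervals are too wide where a row or sum fills much of a library. They cover counting error alone, and PCR copies of a molecule were not told apart.

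MicroRNAs guide Argonaute proteins to messenger RNAs, mainly through bases 2 to 8 at their 5′ end, the seed. Let-7 was found in nematodes as a regulator of developmental timing, and in mammals the family is kept at low levels in stem cells by the LIN28 proteins and accumulates as neurons and other cells mature. Its targets include Lin28 itself, Hmga2 and members of the Ras family. Most precursors yield a dominant 5p arm, while the 3p strand is usually discarded.

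The mature sequences are shown because the members that dominated the libraries differed from each other by very few bases, all outside the seed. All 12 members matched a RefSeq sequence (GRCr8) by name. In the 5p arms below the seed is in capitals, and each is 22 bases long.
rno-let-7c-5p: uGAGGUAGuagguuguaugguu
rno-let-7f-5p: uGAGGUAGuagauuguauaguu
rno-let-7b-5p: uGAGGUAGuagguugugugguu
rno-let-7a-5p: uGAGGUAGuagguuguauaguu
rno-let-7e-5p: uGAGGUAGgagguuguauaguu
rno-let-7d-5p: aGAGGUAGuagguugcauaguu
rno-let-7i-5p: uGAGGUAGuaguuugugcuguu
rno-miR-98-5p: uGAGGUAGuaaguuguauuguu

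The seed was the same in all 8, and 14 of the 22 positions held the same base throughout. Counted from 1 at the 5′ end and read against let-7a-5p, let-7c-5p carried A19G, let-7b-5p carried A17G and A19G, let-7e-5p carried U9G and let-7f-5p carried G12A. Let-7d-5p carried U1A and U16C, and miR-98-5p carried G11A and A19U. Let-7i-5p stood farthest from let-7a-5p, with G12U, A17G, U18C and A19U. Of the 28 pairs of 5p members, 4 differed at 1 position, namely let-7a with let-7c, let-7e and let-7f, and let-7b with let-7c. How the authors assigned reads with a mismatch, or reads too short to hold the variable bases, is not given in the sources used here, so that counts of such pairs could have been exchanged. RefSeq lists 9 mature rat miRNAs with this seed. The ninth, let-7g-5p, had no row among the 390 analysed, so the family sums do not hold a count under its name. Of the other rows of the table with a RefSeq sequence (297 of 328 known miRNAs had one), 0 carried the seed.

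The 3p arms have no part in this seed. Let-7d-3p reads cuauacgaccugcugccuuucu and let-7e-3p reads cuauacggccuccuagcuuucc. Let-7a-1-3p and let-7c-2-3p are shown because they are the same molecule in sequence, and both rows read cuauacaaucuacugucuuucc. Their counts were equal as well, 10 after SE and 8 in controls for each. It was the only pair of rows with 1 shared RefSeq sequence in the table. The rows could not be told apart and are described below as 1 sequence listed under both names. Both rows were kept in the sums of the table, in the numbers of rows and in the tests of the arms.

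Mature let-7 comes from several genes. In the GRCr8 assembly let-7a-5p lies at chr17:16320145-16320166 (Mirlet7a1) and chr8:50805219-50805240 (Mirlet7a-2), both on the plus strand. Let-7c-5p lies at chr11:29688127-29688148 (Mirlet7c1) and chr7:118683636-118683657 (Mirlet7c2), and let-7f-5p at chr17:16320508-16320529 (Mirlet7f-1os) and chrX:24460052-24460073 (Mirlet7f2), all on the plus strand. The other members have 1 gene each in RefSeq. Let-7b-5p lies at chr7:118684044-118684065, beside Mirlet7c2, and let-7d-5p at chr17:16322273-16322294, beside Mirlet7a1 and Mirlet7f-1os. Let-7e-5p lies at chr1:67350243-67350264 within the span of Spaca6. Let-7i-5p, on the minus strand, lies at chr7:60527935-60527956. MiR-98-5p lies at chrX:24460663-24460684, and both it and Mirlet7f2 are within the span of Huwe1. A count of let-7a, let-7c or let-7f could not be divided between the genes that encode it.

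The 5p family made up the bulk of the counts of the table in both libraries, and its total share of them was close to the same in each. Its 8 members summed to 4681703 counts after SE and 5530433 in controls, that is 82.45% (interval 82.42 to 82.48) and 82.51% (interval 82.48 to 82.53) of all counts. The share was 0.054 percentage points lower in the experimental group on this scale (two-sided Fisher's exact test on reads, p = 0.0126, which compares these libraries and not the conditions), and it was higher when clean reads or known miRNAs were the denominator. Of the clean reads the 5p family took 64.7% in the experimental library and 63.3% in the control library. Because the tissue was sequenced in bulk, fewer cells of a type and less RNA per cell cannot be told apart.

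The order of the 5p members was also the same in both libraries. Let-7c-5p was the most abundant miRNA of the table, with 1858768 counts (327358 CPM) after SE and 2164699 counts (322942 CPM) in controls. Let-7f-5p was second, with 1107342 counts (195020 CPM) and 1351734 counts (201659 CPM). Let-7b-5p followed with 767281 counts (135130 CPM) after SE and 843222 counts (125797 CPM) in controls. These were the leading 3 rows of the whole table in either library.

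Let-7a-5p, the founding sequence of the family, ranked 4, with 665100 counts (117134 CPM) and 816561 counts (121819 CPM). In the control group it came close to let-7b-5p, which exceeded it 1.03-fold, against 1.15-fold in the experimental group. Let-7e-5p ranked 6 in both libraries, with 165845 counts (29208 CPM) after SE and 207967 counts (31026 CPM) in the control group. Let-7d-5p, which carries U1A, ranked 8, with 92668 counts (16320 CPM) and 117649 counts (17552 CPM).

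The last members were far lower. Let-7i-5p had 22523 counts (3967 CPM) after SE and 26018 counts (3882 CPM) in controls, ranks 15 and 13. MiR-98-5p had 2176 counts (383 CPM) and 2583 counts (385 CPM), ranks 65 and 64. Let-7c-5p was thus 854-fold above miR-98-5p in the experimental library and 838-fold in the control library. Within each library the counting intervals of neighbouring 5p members did not overlap, but the spread between animals behind these levels is not known, and differences in ligation between sequences were not tested.

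**Figure D1:**
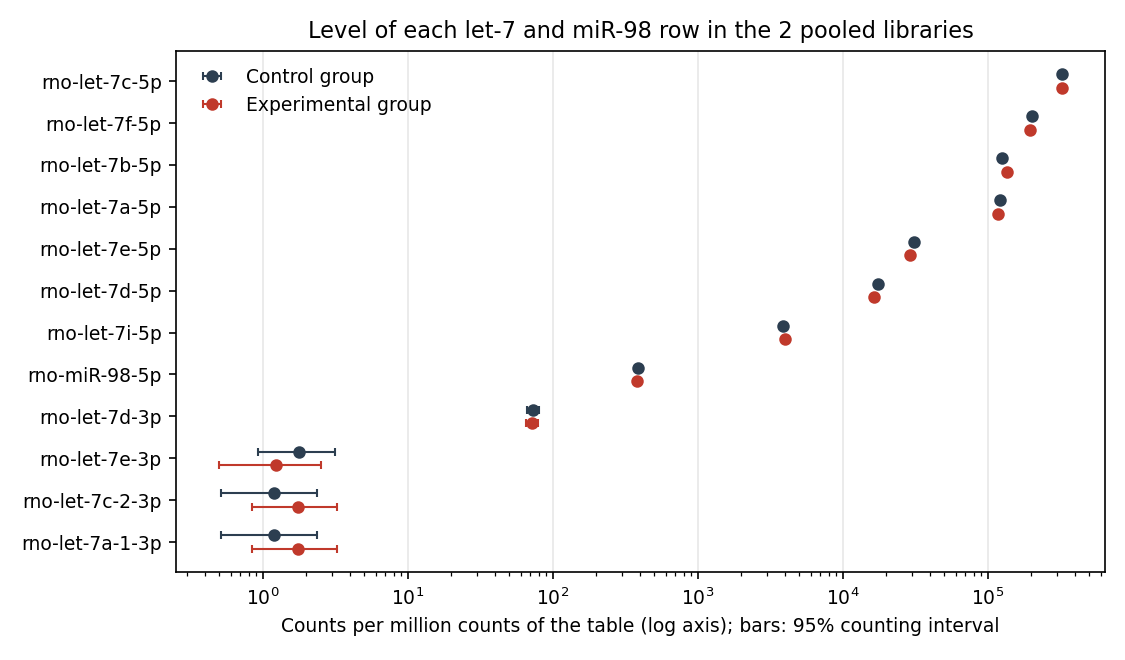
Counts per 1000000 counts of the table (log axis) for the 12 family rows, with 1 point per pooled library and bars for the 95% counting interval. The 2 libraries nearly coincide for every 5p member, from 327358 CPM for let-7c-5p to 383 CPM for miR-98-5p in the experimental group, and the intervals of the 3p rows overlap.

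Inside the family, let-7b-5p took a larger part after SE and let-7f-5p and let-7a-5p smaller ones. These shares of the summed 5p counts do not depend on how the libraries are scaled. Let-7b-5p made up 16.4% of the family after SE and 15.2% in controls, a difference of 1.14 percentage points. Let-7c-5p made up 39.7% and 39.1%, a difference of 0.56 points. The share of let-7f-5p was 23.7% and 24.4%, a difference of -0.79 points, and that of let-7a-5p was 14.2% and 14.8%, a difference of -0.56 points.

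Let-7e-5p made up 3.54% of the family after SE and 3.76% in controls, and let-7d-5p 1.98% and 2.13%. Let-7i-5p stood at 0.481% and 0.470%, and miR-98-5p at 0.0465% and 0.0467%. The interval of the ratio of the shares lay above 1 for let-7b, let-7c and let-7i and below 1 for let-7a, let-7d, let-7e and let-7f, while that of miR-98-5p held 1. Across members, 1.71% of the family counts fell on another member in the experimental library than in the control library. With 1 pooled library a group, a difference of this size could not be set against the spread between rats.

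**Figure D2:**
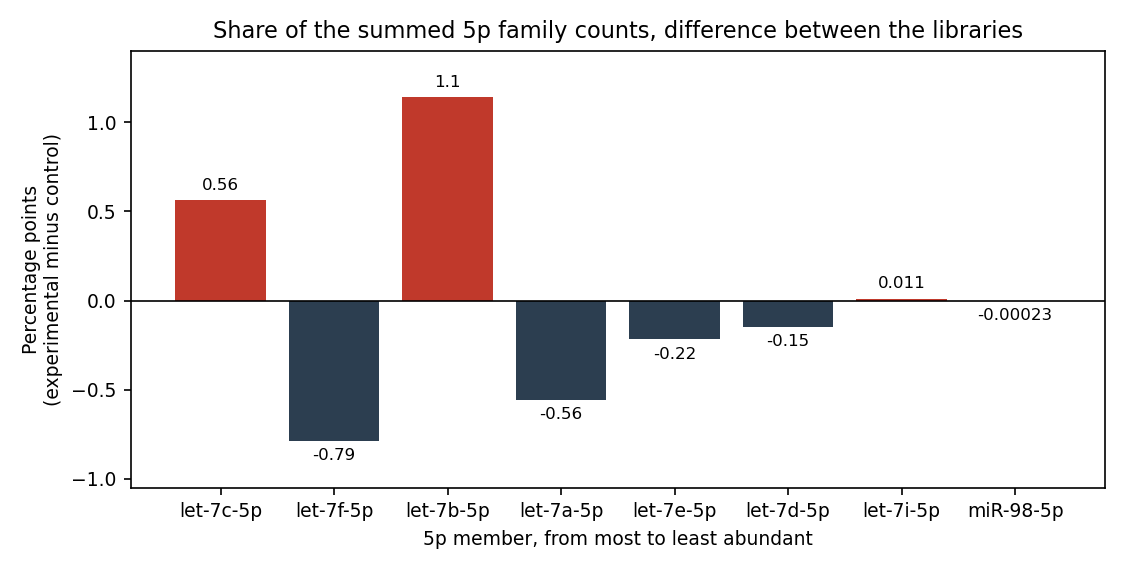
Difference between the libraries in each 5p member's share of the summed 5p family counts, in percentage points, with members ordered by abundance. Let-7b-5p stands highest at 1.14 points and let-7f-5p lowest at -0.79 points, and the bars of let-7i-5p and miR-98-5p are barely visible at this scale.

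On the scale of log2 ratios, the 5p members lay between -0.10 and 0.10, and none reached a 2-fold difference. Of the 12 members, 9 had at least 30 counts in either library and were tested, the 8 of the 5p arms and let-7d-3p. A log2 ratio above 1 was found for 0 of the 9, against 9.12% of the 285 tested miRNAs of the table, and one below -1 for 0, against 2.11%. Among the 5p members the median size of the log2 ratio, sign left aside, was 0.052, and over all tested miRNAs it was 0.35. Restricted to the 69 other miRNAs with at least 1000 counts in both libraries, it was 0.28. Of those 69, 15.9% had a log2 ratio within the range of the 5p members, and of the 276 other tested miRNAs 14.1% did. These sizes rest on scaling by the sum of the table. The 5p family was itself 82.45% and 82.51% of that sum, so its total had little room to rise. With TMM the 5p members lay between -0.25 and -0.045, and without scaling between -0.34 and -0.14.

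Let-7b-5p had the highest ratio, 1.07-fold with a log2 ratio of 0.10 (interval 0.099 to 0.108), but it was lower in the experimental group with TMM scaling and without scaling. Let-7c-5p had a log2 ratio of 0.020 (interval 0.017 to 0.022), which turned negative with TMM, with DESeq2's size factors and without scaling. Let-7i-5p had one of 0.031 (interval 0.0055 to 0.057), which turned under the same scalings.

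The log2 ratio of let-7d-5p was the lowest, -0.10 (interval -0.12 to -0.093), a level 0.93 times that of the control group. Let-7e-5p had a log2 ratio of -0.087 (interval -0.096 to -0.078), let-7a-5p one of -0.057 (interval -0.061 to -0.052) and let-7f-5p one of -0.048 (interval -0.052 to -0.045). These 4 were below 0 under each of the 5 other scalings tried. For miR-98-5p, the member encoded beside let-7f-2, the log2 ratio was -0.0080 (interval -0.091 to 0.075), so that no difference was detectable at this depth, though TMM and no scaling placed it lower.

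Fisher's exact test on the reads, with Benjamini-Hochberg adjustment over the 285 tested miRNAs and an adjusted p under 0.01, called 2 members higher in the experimental library (let-7b-5p and let-7c-5p) and 4 lower (let-7a-5p, let-7d-5p, let-7e-5p and let-7f-5p). Over all tested miRNAs 32.3% were called higher and 20.0% lower. Let-7i-5p (adjusted p = 0.0295), miR-98-5p (adjusted p = 0.890) and let-7d-3p (adjusted p = 0.874) were not called by the exact test. At these depths the test calls differences of a few percent. Where a coefficient of variation of 0.2 between libraries of a group was assumed, edgeR's exact test called 0 of the 9, against 4.91% of the tested miRNAs, and the lowest unadjusted p among them was 0.798.

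For let-7b-5p, let-7c-5p, let-7i-5p, miR-98-5p and let-7d-3p the direction depended on the scaling, and for the other tested members it did not. TMM shifted every log2 ratio by -0.15 and no scaling by -0.24, and under either all 8 of the 5p members were below 0. Relative to the median of the tested miRNAs, which was 0.069 with the sum of the table, the summed family lay lower. Its log2 ratio was -0.00095 (interval -0.0027 to 0.00083, too wide for so large a share). Of the miRNAs called by Fisher's exact test, 61.7% were higher with the sum of the table, 44.2% with TMM and 36.0% without scaling.

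**Figure D3:**
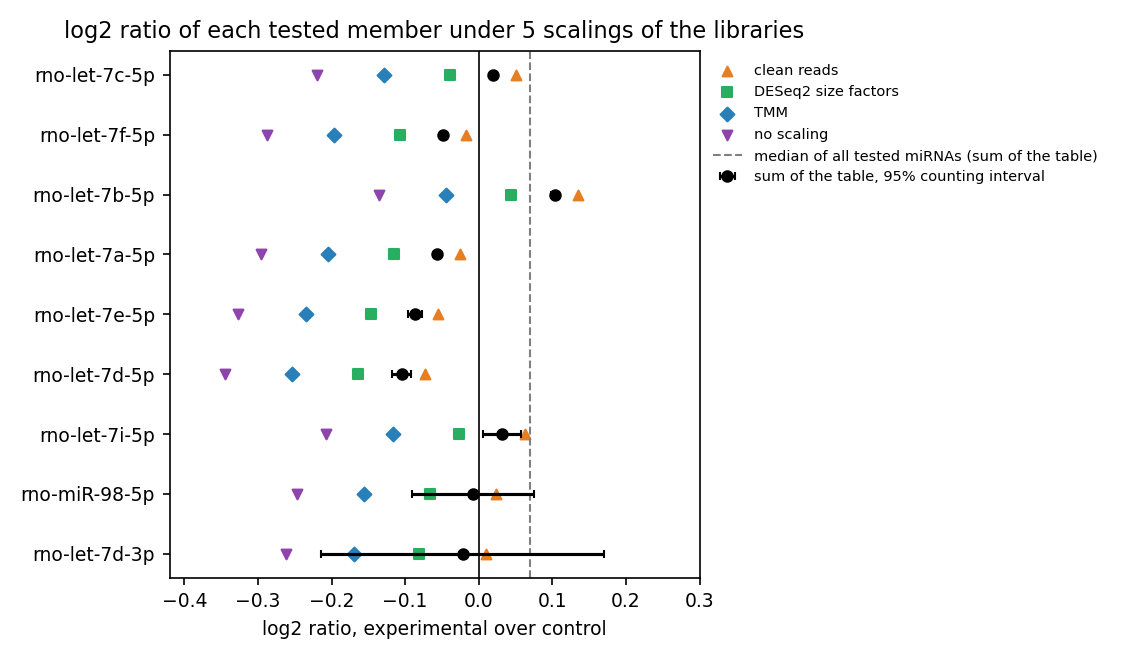
Log2 ratio of the experimental over the control library for the 9 tested members. Black points with 95% counting intervals use the sum of the table, coloured symbols the other scalings, and the dashed line is the median of all tested miRNAs at 0.069. Each scaling moves all members by the same amount, so that let-7b-5p runs from -0.14 without scaling to 0.13 with clean reads while the order of the members stays.

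**Figure D4:**
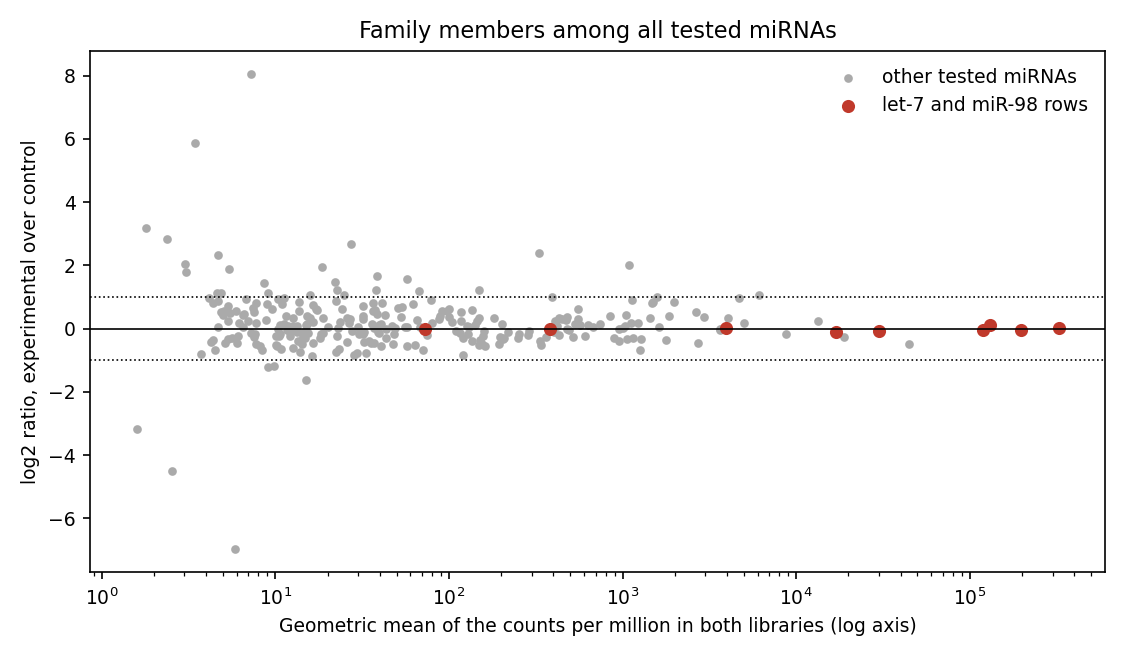
Log2 ratio against the geometric mean of the CPM in both libraries (log axis) for the 285 tested miRNAs, counts under 3 set to 3, with the family in red and dotted lines at -1 and 1. The 9 family rows lie near 0, from -0.10 to 0.10, and include the 4 most abundant miRNAs of the table.

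The 3p arms were rare, and their share of the precursor did not differ detectably between the libraries. Let-7d-3p was the most abundant, with 408 counts (71.9 CPM) after SE and 489 counts (73.0 CPM) in controls. It made up 0.438% of let-7d reads in the experimental library (0.397 to 0.483) against 0.414% in the control library (0.378 to 0.452). The log2 odds ratio of the arms between the libraries was 0.083 (interval -0.11 to 0.28). By a two-sided Fisher's exact test p was 0.40, and 0.644 when adjusted over 4 pairs of arms. Those pairs held the shared 3p sequence under both of its names.

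Let-7e-3p had 7 counts (1.23 CPM) and 12 counts (1.79 CPM), or 23692 and 17331 reads of let-7e-5p for each read of the 3p arm. Its log2 odds ratio was -0.45 (interval -2.04 to 1.01), so that a 2-fold difference either way would not be detectable at this depth. The shared sequence of let-7a-1-3p and let-7c-2-3p, with 10 and 8 counts, stood at 1.76 CPM and 1.19 CPM. Against let-7a-5p its log2 odds ratio was 0.62 (interval -0.87 to 2.16), and against let-7c-5p 0.54 (interval -0.95 to 2.09). Since that sequence can stem from either gene and each 5p arm has 2 genes, these odds are no share of 1 precursor.

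Compared with other precursors, the let-7 arms were very uneven. Among 73 other precursors with both arms counted in both libraries, the rarer arm took a median of 12.8% of the reads. The lowest share of a rarer arm among them was 0.0391%, and 4 of the 73 lay under that of let-7d and 0 under that of let-7e. Precursors with an arm that was not counted were left out of the comparison. A share as low as that of let-7e can only be seen in a precursor with very many reads, so the 0 depends on depth. This is a description over the table, and no test was made of it.

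A fixed list of 11 rows, taken as neighbours of let-7 genes, was looked at as well, and 9 of them were tested. It held miR-99a, miR-99b, miR-100, miR-125a and miR-125b. Genes of miR-125b were not found within 10 kb of a let-7 gene, while those of the others were. MiR-99 and miR-100 form a family with a seed of its own, and miR-125 is the mammalian counterpart of lin-4, the other timing miRNA of nematodes. By the adjusted Fisher's exact test 1 of the 9 was higher in the experimental library (miR-99b-5p, not called with TMM or without scaling) and 5 were lower (5 under each scaling), with a median log2 ratio of -0.25, where the 5p members of let-7 had a median of -0.028 and all tested miRNAs one of 0.069. Over all tested miRNAs 32.3% were called higher and 20.0% lower, as given above. A log2 ratio below -1 was found for 2 of the 9, miR-99b-3p and miR-125a-3p, against 2.11% of all tested. These lie beside let-7e within 10 kb, and both are 3p arms.

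MiR-125b-5p had 8966 counts (1579 CPM) after SE and 13605 counts (2030 CPM) in controls, which gives a log2 ratio of -0.36 (interval -0.40 to -0.32). MiR-99a-5p, encoded next to let-7c-1, had 2711 and 3811 counts, with its log2 ratio at -0.25 (interval -0.32 to -0.18), while the other arm, miR-99a-3p, had 68 and 52 counts and stood at 0.63 (interval 0.084 to 1.18). MiR-100-5p, next to let-7a-2, had 401 and 480 counts, with its log2 ratio at -0.020 (interval -0.21 to 0.17). The intervals of miR-125b-5p and miR-99a-5p thus lay wholly below that of let-7c-5p and that of miR-99a-3p wholly above it. Such gaps between rows of the same libraries are the same under any scaling. MiR-99a-3p was not called by Fisher's exact test. Let-7c-5p also comes from a gene on another chromosome than miR-99a, so this is no comparison within a single cluster. The interval of miR-100-5p held the ratio of let-7a-5p.

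The known miRNAs with at least 1000 counts in both libraries whose ratio lay nearest to that of the summed 5p family were miR-382-5p (log2 ratio -0.0037), miR-92b-3p (-0.012) and miR-25-3p (-0.032). Likeness here is the gap between log2 ratios over 2 libraries, and it is a description of these libraries.

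The labelled tissue was checked against marker miRNAs. Of 6 neuronal markers 5 were in the table, led by miR-128-3p and miR-124-3p, with a summed level of 48031 CPM after SE and 58124 CPM in controls. The lower sum came from miR-128-3p (log2 ratio -0.49), and the other 4 were higher after SE, with log2 ratios of 1.06 for miR-124-3p, 0.68 for miR-132-3p, 0.57 for miR-137-3p and 0.43 for miR-138-5p. The list taken for astrocytes and oligodendrocytes (5 of 5) held miR-219-2-3p, miR-219-5p, miR-338-3p, miR-143-3p and miR-23a-3p. It summed to 2435 and 2541 CPM, with log2 ratios from -0.51 to 0.15, and how specific each is to these cells was not tested. Microglia and leukocyte markers (2 of 5) summed to 50.4 and 53.0 CPM. Erythrocyte markers (3 of 4, none at 0) summed to 39.4 CPM after SE and 17.8 CPM in the control group. Most of that sum was miR-451-5p, with 196 counts after SE and 100 in controls. MiR-144-5p had 16 and 5 counts, and miR-144-3p had 12 and 14. Markers of liver and muscle (4 of a list of 7 for other tissues) summed to 336 and 361 CPM. The part of any of these in the shares of the family was not tested.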

How the data were processed

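The data are small RNA sequences of 2 pools of rat hippocampal RNA, 1 per group. For each miRNA the authors deposited a read count without scaling, a whole number, although the file header speaks of normalized signal. Per the study's methods, low-quality and short reads and sequences read once were discarded. The submitters' processing notes name the genome build rn5. The aligner, the miRBase release and the handling of reads that match several miRNAs are not given in the sources used here. The labels describe an array extract and another sequencer than the study's methods, which were followed. Columns of the authors' own p-values were not used.

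Counts were divided by the sum of the table in each library. Counts under 3 were set to 3 before a ratio was taken. A miRNA was tested with at least 30 counts in either library, by a two-sided Fisher's exact test with Benjamini-Hochberg adjustment over the 285 tested, and called at an adjusted p under 0.01 or a log2 ratio beyond 1 in size. These tests compare libraries, not conditions. The text names every family row, the listed cluster neighbours and the 3 miRNAs of nearest ratio. The members and lists were chosen with earlier results of these data known. Alternatives were clean reads, TMM, DESeq2's size factors, no scaling, the sum without the family, 1 added to both counts, other minimums, a log2 ratio beyond 2, known miRNAs only, and the exact test of edgeR where a coefficient of variation of 0.2 or 0.4 was assumed. The tests were tried on simulated counts that held counting error alone and left the family unchanged. That trial does not bear on the spread between animals or on small differences within the family. Sequences, gene positions and spanning genes came from RefSeq (GRCr8). Analyses ran in R 4.3.3 with edgeR 4.0.16 and DESeq2 1.42.0, and in Python 3.11.15 with pandas 2.3.3, scipy 1.17.1 and matplotlib 3.10.9.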

Additional observations from a re-analysis of the deposited data

How the results depend on the processing

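No paired analysis was possible because the pools leave 1 library a group, and no replicate could be left out. The difference in the 5p family share turned from -0.054 to 1.35 percentage points with clean reads and to 0.069 with known miRNAs only. Log2 ratios turned sign for let-7b-5p (-0.045 with TMM, -0.14 without scaling), let-7c-5p (-0.13 with TMM, -0.039 with DESeq2's size factors, -0.22 without scaling) and let-7i-5p (-0.12, -0.028 and -0.21 in the same order). With clean reads they turned for miR-98-5p (0.023) and let-7d-3p (0.0096). Of members past the Fisher test, 2 were higher and 4 lower. TMM and no scaling each gave 0 higher and 8 lower, DESeq2's size factors 1 higher and 5 lower, clean reads 3 higher and 4 lower, and an assumed coefficient of variation of 0.2 or 0.4 gave 0 in either direction. Scaling by the sum without the family and adding 1 to both counts turned none of the 12 ratios. Under the 8 alternatives run for it, the number of members past the set log2 ratio was 0. For a minimum of 100 counts and for a log2 ratio beyond 2, both stricter than the main setting, this followed from the main result. The arm test called 0 pairs of arms with or without a minimum of 30 counts. Depth limits the 3 rows under 30 counts, with log2 intervals of -0.93 to 2.11 for the shared 3p sequence and -2.12 to 0.92 for let-7e-3p, and the lack of replicates limits all the rest.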

Other observations

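The values of the following groups were seen before they were formed, so that no test of them is reported. Let-7b-5p and let-7c-5p, the 5p members with A19G against let-7a-5p, together took 46.2% of all counts after SE and 44.9% in controls. Let-7a-5p, let-7d-5p, let-7e-5p and let-7f-5p, which share the base of let-7a-5p there, together took 35.8% and 37.2%. Let-7b and let-7c-2 are also neighbours on chromosome 7, and let-7a-1, let-7f-1 and let-7d on chromosome 17, while the gene of let-7e, with a lower share, lies on chromosome 1. Let-7a, let-7c and let-7f also have genes on other chromosomes, so their counts cannot be tied to these clusters. Let-7i-5p and miR-98-5p carry A19U and were in neither group.

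The family share stayed near 82.5% while the remaining 378 rows changed in makeup. MiR-128-3p, a neuron-enriched miRNA, took 3.78% of all counts after SE and 5.29% in controls, a difference of -1.51 percentage points. MiR-124-3p, also enriched in neurons, took 0.887% and 0.425%, a difference of 0.462 points the other way. The 376 remaining rows outside the family took 12.9% and 11.8%, a difference of 1.10 points.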
